A study of Mus musculus with 2 samples.

Results

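Interferon-responsive microglia are the microglia of these retinal samples that carried transcripts of genes induced by type I interferon. A cell counted as a microglial cell when its unique molecular identifiers (UMIs, each standing for 1 captured transcript) of P2ry12, Tmem119, Gpr34, Olfml3, Sparc and Sall1 came to at least 3 and to at least 15 per 10000 UMIs of the cell. It counted as interferon-responsive when its UMIs of Ifit1, Ifit2, Ifit3, Ifit3b, Isg15, Rsad2 and Oasl1 came to at least 4. This gave 151 cells of 4385 in all, of which 121 lay among 1570 microglia of the Igfbpl1 library and 30 among 769 microglia of the PBS library. The cells were thus chosen by the measured levels of these 7 and 6 genes, which are described below and not tested.

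The study profiled single retinal cells of B6 mice that had been sorted by flow cytometry for CD45, a surface protein of white blood cells. Glaucoma had been induced with microbeads in both groups, and the mice were perfused and the retinas dissociated with enzymes. One group was treated with Igfbpl1, a secreted protein of the insulin-like growth factor binding family, and the other with PBS, so no uninjured retina was analysed here. Each group gave 1 library (10x Genomics 3' chemistry) from the pooled retinas of 10 mice aged 8 to 10 months. The dose and route of treatment and the sex of the mice are not given in the sources used here. With 1 library per group no difference between Igfbpl1 and PBS could be tested, treatment cannot be told apart from library, and the 95% intervals below cover counting error only.

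Type I interferons bind a receptor made of Ifnar1 and Ifnar2, whose kinases Jak1 and Tyk2 activate transcription factors, Stat2 among them. With Irf9 these bind interferon-stimulated response elements near many genes that block viral replication, sense foreign nucleic acid and recruit other leukocytes. Microglia with this response have been described in ageing, injured and neurodegenerating brain, where they form a small share of the microglia.

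The 5 genes of the rule that hold a copy of the response-element core in the window read here show what such a promoter looks like, beside Cxcl10, a chemokine gene outside the rule to which the results below return. Each line gives 250 bases upstream of the gene's start, 5' to 3' on the strand of the gene, from RefSeq for GRCm38.p6, with the core GAAANNGAAA or its reverse complement TTTCNNTTTC in capitals.
Ifit1, chr19:34640639-34640888 (+ strand): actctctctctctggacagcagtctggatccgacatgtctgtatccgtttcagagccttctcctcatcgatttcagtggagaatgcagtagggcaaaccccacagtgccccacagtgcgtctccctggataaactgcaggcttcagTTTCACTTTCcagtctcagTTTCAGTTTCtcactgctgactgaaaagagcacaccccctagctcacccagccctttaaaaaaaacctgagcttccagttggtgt
Ifit3, chr19:34583279-34583528 (+ strand): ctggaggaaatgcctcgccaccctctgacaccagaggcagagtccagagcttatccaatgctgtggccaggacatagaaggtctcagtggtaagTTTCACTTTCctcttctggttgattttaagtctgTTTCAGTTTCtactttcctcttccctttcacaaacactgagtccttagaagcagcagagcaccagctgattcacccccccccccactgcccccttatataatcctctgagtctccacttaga
Ifit3b, chr19:34607707-34607956 (+ strand): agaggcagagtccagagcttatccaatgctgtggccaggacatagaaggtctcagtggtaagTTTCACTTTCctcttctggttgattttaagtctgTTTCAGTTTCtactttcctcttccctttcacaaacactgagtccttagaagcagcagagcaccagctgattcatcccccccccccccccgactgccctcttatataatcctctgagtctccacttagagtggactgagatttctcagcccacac
Isg15, chr4:156200819-156201068 (- strand): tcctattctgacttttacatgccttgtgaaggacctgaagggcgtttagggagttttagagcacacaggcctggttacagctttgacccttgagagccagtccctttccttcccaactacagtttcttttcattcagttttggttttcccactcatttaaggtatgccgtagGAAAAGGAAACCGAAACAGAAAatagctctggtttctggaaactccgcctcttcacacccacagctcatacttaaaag
Rsad2, chr12:26456453-26456702 (- strand): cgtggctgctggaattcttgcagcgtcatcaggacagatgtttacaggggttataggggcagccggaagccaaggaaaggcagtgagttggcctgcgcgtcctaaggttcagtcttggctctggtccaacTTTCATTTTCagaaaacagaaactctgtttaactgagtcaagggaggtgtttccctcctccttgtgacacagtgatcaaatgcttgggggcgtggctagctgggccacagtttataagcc
Cxcl10, chr5:92348890-92349139 (- strand): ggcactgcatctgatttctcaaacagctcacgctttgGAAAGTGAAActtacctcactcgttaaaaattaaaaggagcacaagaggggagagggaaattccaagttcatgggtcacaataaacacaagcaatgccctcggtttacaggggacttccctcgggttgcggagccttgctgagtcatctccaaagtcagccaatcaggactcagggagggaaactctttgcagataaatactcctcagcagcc
Ifit1, Ifit3 and Ifit3b had 2 matches each, Isg15 had 3 overlapping ones, and Rsad2 and Cxcl10 had 1 each. The core was not found in the windows of Ifit2 and Oasl1, which says only that these letters are not in those bases. Of 27025 genes with a window, 936 (3.46%) held it. The share was 33 of 80 matched genes (41.2%) among 108 interferon genes outside the rule and 0 of 4 matched genes among the 6 that define the microglia gate. These matches describe the sequence and are not binding sites. Ifit3 and Ifit3b are close neighbours and near copies, so the authors' counting could split or drop reads between them, and their separate values are uncertain.

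The deposited counts held 9463631 UMIs in 3330 cells of the Igfbpl1 library, and 3795008 UMIs in 1055 cells of the PBS library. No barcode was found in both libraries. Igfbpl1 cells were shallower, with a median of 2074.5 UMIs per microglial cell, against 3555 UMIs in the PBS library. The microglia of the libraries also differed in sex-linked transcripts. Cells with UMIs of Xist and none of 4 Y-linked genes (Xist-only) numbered 550 in the Igfbpl1 library and 188 in the PBS library, and the reverse (Y-only) 429 and 363.

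Genes of microglia that the gate did not use were also read in the cells, without a comparison with the other cell classes of the sort. Cx3cr1, the fractalkine receptor gene, was found in 115 of 121 cells in the Igfbpl1 library and in 30 of 30 in the PBS library. Trem2, a lipid-sensing receptor gene, was found in 111 and 29 cells. Ptprc, which encodes the sorted protein CD45, was found in 85 and 25 cells. Since all cells were sorted for that protein, Ptprc does not tell microglia from other leukocytes. Scrublet, a doublet caller, marked 1.86% of all cells of the Igfbpl1 library, 8 of these 121 cells among them. It marked 0.569% of the PBS library and none of its 30 cells.

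The 7 genes of the rule encode antiviral proteins. The Ifit proteins bind foreign RNA, Isg15 is a ubiquitin-like modifier, Rsad2 (viperin) makes a chain-terminating nucleotide, and Oasl1 belongs to the oligoadenylate synthetase family. Together they stood at 2818 UMIs per 1000000 UMIs of the class (CPM) in the 121 cells of the Igfbpl1 library, against 139 CPM in its other microglia, and at 3231 CPM in the 30 cells of the PBS library, against 60.7 CPM in its other microglia. Isg15 was the most abundant of them in the Igfbpl1 library (755 CPM, in 99 of 121 cells) and Ifit3 in the PBS library (609 CPM, in 21 of 30 cells). Ifit3b was the least abundant in both libraries (128 and 263 CPM). At least 3 different genes of the 7 were found in 90 of 121 cells (74.4%) and in 21 of 30 cells (70.0%).

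The cells spanned a wide range of strength. Their UMIs of the 7 genes ranged from 4 to 52 with a median of 6 in the Igfbpl1 library, and from 4 to 55 with a median of 7 in the PBS library. Just inside the limit lay 24 and 6 cells with 4 UMIs, and just outside it 53 and 13 microglia with 3 UMIs. The limit therefore cuts a continuous range. Cells with 16 or more UMIs numbered 11 in the Igfbpl1 library, where they held 29.8% of the UMIs of the rule in these cells, and 9 in the PBS library, where they held 69.5%. In the Igfbpl1 library 5 of them stood at 39 to 52 UMIs, the next at 19, and 1 cell with 16 UMIs owed 15 of them to Oasl1 alone.

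**Figure D1:**
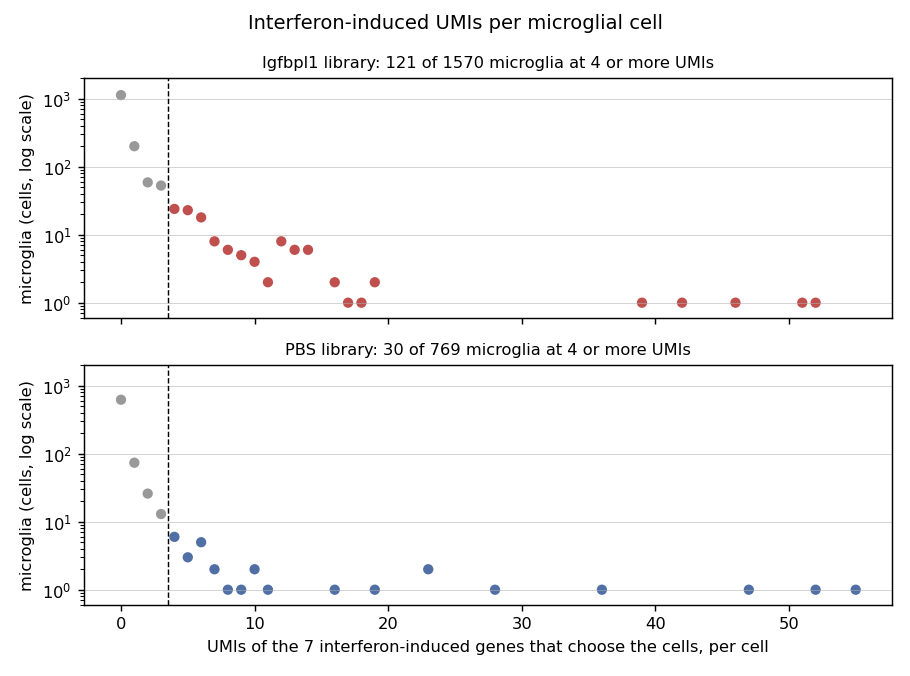
Microglia (log scale) by UMIs of the 7 rule genes per cell, the Igfbpl1 library above and the PBS library below, with the chosen cells in colour right of the dashed line. The number of cells drops without a gap across the limit, with 53 and 13 cells at 3 UMIs and 24 and 6 cells at 4 UMIs.

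Their share of the microglia was 7.71% in the Igfbpl1 library (121 of 1570, exact interval 6.44 to 9.14%) and 3.90% in the PBS library (30 of 769, 2.65 to 5.52%). The difference was 3.81 percentage points (1.78 to 5.64). A fixed number of UMIs is reached more easily by deep cells, and here the library with the larger share was the shallower. With every cell thinned to 1000 UMIs and a limit of 2 UMIs, the shares were 7.90% in the Igfbpl1 library and 2.99% in the PBS library. Within bins of depth they were 7.39% and 2.69% from 2000 to under 3000 UMIs, 9.95% and 3.27% from 3000 to under 4000 UMIs, and 16.5% and 5.94% at 4000 UMIs or more. From 1000 to under 2000 UMIs they were 41 of 726 cells (5.65%) and 0 of 52 cells, a count that still permits a share of 5.77% on a limit of 3 counts. The Igfbpl1 share was above the PBS share in each of these bins, though in the shallowest bin an equal PBS share lies within that limit. Among all sorted cells, in place of microglia, the share was 3.63% in the Igfbpl1 library and 2.84% in the PBS library, a difference of 0.790 points whose interval holds 0 (-0.533 to 1.88).

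The difference was smaller at higher minimums. At 8 or more UMIs of the 7 genes the shares were 3.06% in the Igfbpl1 library and 1.82% in the PBS library, and the interval of the difference held 0 (-0.185 to 2.45 points). At 16 or more they were 0.701% (11 of 1570) and 1.17% (9 of 769), a difference of -0.47 points (-1.55 to 0.310).

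By sex-linked transcripts the libraries differed among Xist-only cells and hardly among Y-only ones, though the difference between these contrasts was not tested. Among Xist-only cells, 77 of 550 microglia (14.0%, 11.2 to 17.2%) were interferon-responsive in the Igfbpl1 library and 4 of 188 (2.13%, 0.583 to 5.36%) in the PBS library. Among Y-only microglia 19 of 429 (4.43%) in the Igfbpl1 library and 15 of 363 (4.13%) in the PBS library were so, a difference of 0.297 points (-2.72 to 3.18). Among cells with neither kind of transcript the numbers were 22 of 574 and 10 of 213, a difference of -0.862 points (-4.81 to 1.99). Thinned to 1000 UMIs, the shares among Xist-only cells were 13.1% and 1.06%, and among Y-only cells 5.13% and 3.31%. The part of this composition in the difference of shares was not tested.

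**Figure D2:**
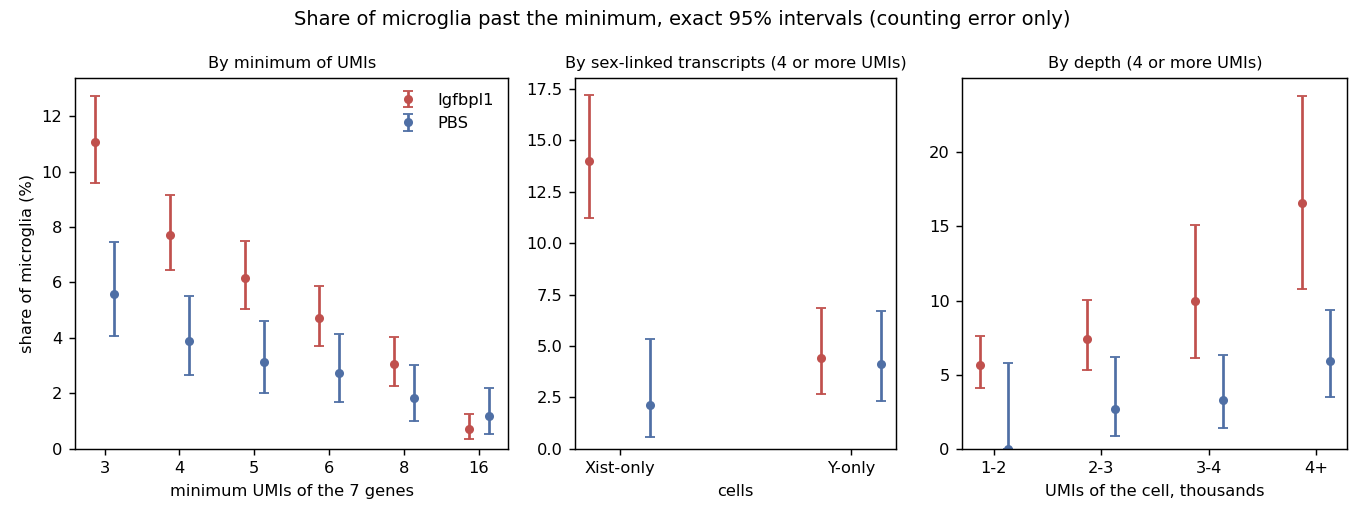
Share of microglia past the limit (%) in the Igfbpl1 library (red) and the PBS library (blue), by the minimum of UMIs of the 7 genes, by sex-linked transcripts and by depth of the cell, where points are shares and bars exact 95% intervals for counting error. For the PBS count of 0 of 52 cells in the shallowest bin the bar ends at 3 counts in place of the exact limit. The libraries stand at 14.0% and 2.13% among Xist-only cells but at 4.43% and 4.13% among Y-only cells, and at 16 or more UMIs the order turns with overlapping intervals.

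Markers of other cell types were checked in the same cells, since the sorted pool held monocytes and lymphocytes. The 6 monocyte markers came to 266 UMIs (668 CPM) in the cells of the Igfbpl1 library, against 122 CPM in its other microglia, and to 6 UMIs (45.1 CPM) in those of the PBS library, against 6.25 CPM in its other microglia. At least 1 such UMI was found in 28 of 121 cells (23.1%) and in 5 of 30 cells (16.7%). Chil3 was at 0 in both libraries, Ly6c2, S100a4 and Ifitm6 were at 0 in the 30 PBS cells, and a single Igfbpl1 cell held 80 of the 266 UMIs. Without any cell that had a monocyte marker UMI, an alternative chosen after seeing the data, the share was 6.50% in the Igfbpl1 library and 3.34% in the PBS library. In that set it was 11.9% and 2.16% among Xist-only cells, and 3.78% and 3.69% among Y-only cells. T cell markers stood at 123 CPM in the Igfbpl1 cells, against 46.7 CPM in its other microglia, and at 0 in the 30 PBS cells, against 13.2 CPM. Border macrophage markers stood at 22.6 CPM in the Igfbpl1 cells (9 UMIs in 2 cells), against 2.32 CPM. In the PBS cells they stood at 22.5 CPM, against 23.2 CPM. Endothelial markers stood at 55.2 CPM, against 25.2 CPM, and at 0, against 21.0 CPM. Rod and B cell markers were lower in the Igfbpl1 cells, at 35.1 CPM, against 64.1 CPM, and at 15.1 CPM, against 35.9 CPM. The other classes had 1 within the intervals of their Igfbpl1 ratios.

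Other cell classes of the sort were read for comparison, since free RNA can give UMIs to any cell. In the Igfbpl1 library 8 of 129 neuron-like cells (6.20%, median depth 2087 UMIs) had any UMI of the 7 genes, against 27.6% of microglia (median depth 2074.5 UMIs), and 1 of 129 had 4 or more. In the PBS library 1 of 32 neuron-like cells had any UMI, against 18.6% of microglia, and 0 of 32 had 4, with a limit of 9.38%, at a median depth of 4182.5 UMIs, against 3555 UMIs in microglia. Other classes had any UMI as often as microglia or more often. In the Igfbpl1 library these were 11 of 33 cells with markers of Muller glia or astrocytes (33.3%, median depth 2050 UMIs), 39 of 89 dendritic-like cells (43.8%, 2207 UMIs) and 87 of 250 cells of no class (34.8%, 2022.5 UMIs), and in the PBS library 16 of 36 border macrophage-like cells (44.4%, 4324 UMIs). A single UMI of the 7 genes therefore does not set microglia apart. At the limit of 4 UMIs the same Igfbpl1 classes had 2 of 33, 13 of 89 and 22 of 250 cells. These shares were 6.06%, 14.6% and 8.80%, against 7.71% of microglia. The border macrophage-like cells of the PBS library had 3 of 36 (8.33%, 1.75 to 22.5%), against 3.90% of microglia. The part of free RNA was not tested. Cells gated by monocyte markers passed the limit of 4 UMIs in 138 of 689 cases (20.03%) in the Igfbpl1 library, at a median depth of 3720 UMIs, and in 1 of 16 in the PBS library. T-like cells passed it in 20 of 271 cases (7.38%) and in 0 of 31 cases (limit 9.68%).

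Interferon genes outside the rule were also higher in the chosen cells. A list of 108 such genes came to 25815 CPM in the interferon-responsive cells of the Igfbpl1 library, against 10136 CPM in its other microglia (2.55-fold, 2.49 to 2.60). The PBS library gave 25737 CPM, against 5937 CPM (4.34-fold, 4.177 to 4.498). Summed over the chosen cells the libraries had a ratio of 1.00 (0.962 to 1.04, over the genes listed in both). That sum rests on the strongest cells, since 9 PBS cells with 16 or more UMIs of the rule held 1727 of the 3425 PBS UMIs of the list, against 1743 of 10287 in 11 Igfbpl1 cells. In cells with 4 to 15 UMIs the list stood at 23034 CPM in the Igfbpl1 library and at 17581 CPM in the PBS library, and the median per chosen cell thinned to 1000 UMIs was 27 and 20.5 UMIs. The other microglia of the Igfbpl1 library stood 1.70-fold above those of the PBS library (1.67 to 1.73). Part of these sums came from abundant cytokine genes. Without the cytokine genes of the list that last ratio was 1.40 (1.37 to 1.43). The chosen cells then stood 2.66-fold above other microglia in the Igfbpl1 library and 3.60-fold in the PBS library. In the 11 strongest Igfbpl1 cells the list stood at 63269 CPM with the cytokine genes and at 28422 CPM without them. A gene was measured when the mean of both classes was 50 CPM or more and both together held 20 UMIs or more, a filter that a gene can pass through the class where it is high. Of 57 measured genes of the list 48 were at least 1.5-fold higher in the Igfbpl1 library on the scale of log2(CPM + 10), against 5.95% of all measured genes, and 0 were lower, against 2.71%. For the PBS library 52 of 60 were higher, against 14.1% of all measured genes, and 2 were lower, against 9.76%. The median log2 ratio was 1.49 and 2.05 over the measured genes, and 1.36 and 1.70 over the 102 and 99 genes with any UMI. Over all measured genes it was -0.0088 and 0.034. Folds of single genes and summed lists are ratios of CPM with nothing added.

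The same list was graded with the rule genes on both sides of the limit. Thinned to 1000 UMIs per cell, its median went through 7, 10, 17, 22, 32 and 62 UMIs in the Igfbpl1 library for cells with 0, 1, 2 to 3, 4 to 7, 8 to 15 and 16 or more UMIs of the 7 genes, and through 4, 6, 8, 12, 19 and 43 UMIs in the PBS library. The Igfbpl1 median was the higher at each step, but the steps are raw UMIs and PBS cells are deeper, so a step stands for a lower level there. At 4 to 7 UMIs the rule genes stood at 1623 CPM in Igfbpl1 cells (median depth 2162 UMIs) and at 1193 CPM in PBS cells (3766 UMIs), and at 16 or more at 12160 and 8193 CPM. Part of the order is thus built into the steps. Cells with 2 to 3 UMIs, just outside the limit, lay between the cells with none and the chosen ones.

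**Figure D3:**
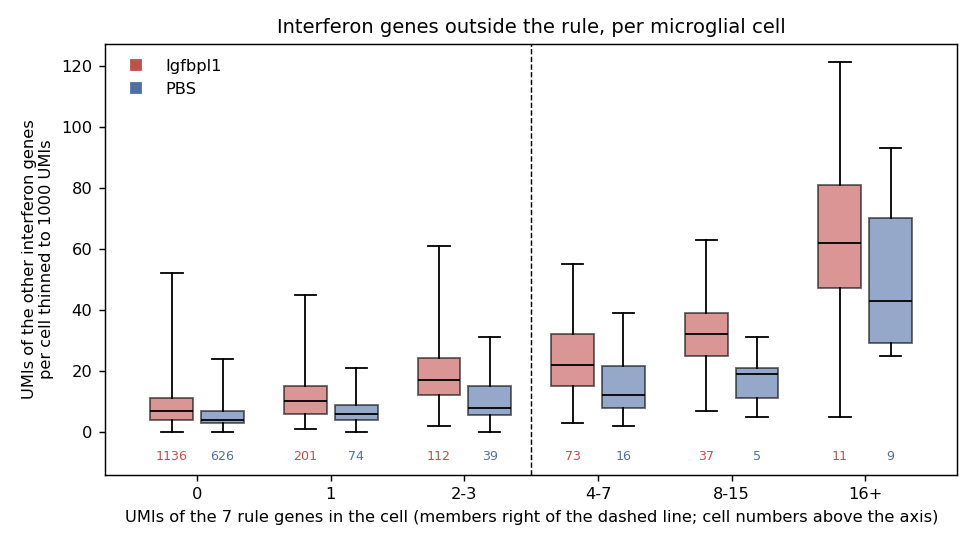
UMIs of 108 interferon genes outside the rule per microglial cell thinned to 1000 UMIs, by UMIs of the 7 rule genes, in the Igfbpl1 library (red) and the PBS library (blue), with boxes for quartiles, a line for the median, whiskers for the range and cell numbers above the axis. Medians climb to 62 and 43 UMIs in the cells with 16 or more UMIs of the rule.

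Among the ligands, Ifnb1 (interferon beta) was the only type I interferon gene listed in both libraries. It had 35 UMIs in the interferon-responsive cells of the Igfbpl1 library (87.8 CPM, in 5 of 121 cells), against 37 UMIs in 15 of 1449 other microglia (10.7 CPM). In the PBS library it had 19 UMIs (143 CPM, in 4 of 30 cells), against 31 UMIs in 11 of 739 other microglia (11.4 CPM). The transcript was concentrated in few cells, since 23 of the 35 UMIs and 14 of the 19 UMIs came from 1 cell each. Those cells had 46 and 52 UMIs of the 7 rule genes and 73 and 75 UMIs of Cxcl10. Outside the gate Ifnb1 had 7 UMIs in 6 of 1760 cells in the Igfbpl1 library and 3 UMIs in 1 of 286 cells in the PBS library. Ifng, the type II interferon that lymphocytes make, had 2 UMIs in the Igfbpl1 cells and 0 in the PBS cells. The other ligand genes of the list were not analysed here.

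Of 7 measured genes of receptors and their kinases 0 were at least 1.5-fold higher in the Igfbpl1 library, against 5.95% of all measured genes, and 2 in the PBS library, against 14.1%. None was lower in either. Ifnar2 stood at 266 CPM in the interferon-responsive cells, against 259 CPM in other microglia of the Igfbpl1 library, and at 316 CPM, against 303 CPM, in the PBS library. Both ratios held 1 in their intervals (1.03, 0.83 to 1.26, and 1.04, 0.744 to 1.42). Ifnar1 stood at 52.7 CPM, against 52.2 CPM, in the Igfbpl1 library, and at 90.2 CPM, against 43.4 CPM, in the PBS library on 12 UMIs (2.08-fold, 1.04 to 3.77). Jak2, a kinase of the interferon gamma receptor, had the other ratio past 1.5 in the PBS library, at 2.03-fold (1.05 to 3.59). Jak1 stood at 236 and 210 CPM in the interferon-responsive cells of the Igfbpl1 and PBS libraries, and at 274 and 252 CPM in the other microglia.

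Among the transcription factors 3 of 7 measured genes were at least 2-fold higher in each library, against 2.71% of all measured genes in the Igfbpl1 library and 4.84% in the PBS library. Irf7, the factor that amplifies the interferon response and is itself induced by it, stood at 281 CPM, against 45.2 CPM in other microglia of the Igfbpl1 library (6.22-fold, 4.83 to 7.98). Its PBS level was 263 CPM, against 18.4 CPM (14.3-fold, 9.02 to 22.5). Stat2 was 3.09-fold higher in the Igfbpl1 library (128 CPM, against 41.4 CPM) and 7.79-fold higher in the PBS library (120.2 CPM, against 15.4 CPM). Its partner Irf9 had ratios of 1.23 (0.775 to 1.88) and 1.95 (0.949 to 3.63), whose intervals held 1. Irf8 and Irf5, factors of the myeloid lineage, were not among the higher genes, Irf8 at 319 CPM, against 291 CPM, in the Igfbpl1 library and at 473 CPM, against 373 CPM, in the PBS library.

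Of 8 measured sensors of nucleic acid 5 were at least 2-fold higher in each library, against 2.71% and 4.84% of all measured genes. Over the 11 detected sensors the median log2 ratio was 1.22 in the Igfbpl1 library and 1.62 in the PBS library. Zbp1, a sensor of Z-form nucleic acid, was 4.64-fold higher in the Igfbpl1 library (171 CPM, against 36.8 CPM) and 21.2-fold higher in the PBS library (203 CPM, against 9.56 CPM). Ifih1 (MDA5), a sensor of long double-stranded RNA, was 3.87-fold and 9.32-fold higher. Ddx58 (RIG-I) and Tlr3 were also past 2-fold in both libraries. Tlr7, which detects single-stranded RNA, and Tmem173 (STING), the adaptor of cytosolic DNA sensing, were below 1.5-fold in both, Tmem173 at 123 CPM, against 106 CPM, in the Igfbpl1 library and at 90.2 CPM, against 143 CPM, in the PBS library. Aim2, a sensor of cytosolic DNA named after its values were seen, was also below 1.5-fold in both.

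Antiviral effectors, the longest of the interferon lists, had 17 of 19 measured genes at least 1.5-fold higher in the Igfbpl1 library and 18 of 20 in the PBS library. Ifitm3, a membrane protein that blocks virus entry, stood at 1759 CPM, against 401 CPM in other microglia of the Igfbpl1 library (4.38-fold, 3.996 to 4.803), and at 1082 CPM, against 143 CPM, in the PBS library (7.59-fold, 6.22 to 9.21). It was found in 106 of 121 and in 21 of 30 cells. Oasl2, a relative of the rule gene Oasl1, was 5.44-fold and 22.6-fold higher. Bst2, the protein tetherin that holds budding viruses at the surface, stood at 1132 and 1232 CPM in the interferon-responsive cells of the Igfbpl1 and PBS libraries, and at 402 and 301 CPM in the other microglia. Ifi27l2a, a mitochondrial protein gene, stood at 2040 CPM, against 961 CPM (2.12-fold), in the Igfbpl1 library and at 1082 CPM, against 230 CPM (4.70-fold), in the PBS library, where 1 cell held 52 of its 144 UMIs. Mx1 was not analysed here.

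Of 12 detected genes of ISG15 conjugation and its relatives 5 were measured in the Igfbpl1 library and 7 in the PBS library. Those were past 2-fold, against 2.71% and 4.84% of all measured genes, with the same limit of the filter. The median log2 ratio was 2.01 and 2.49 over the measured genes, and 1.29 and 1.40 over all 12. Usp18, which removes Isg15 and damps receptor signalling, was 8.79-fold higher in the Igfbpl1 library (168 CPM, against 19.1 CPM) and 22.996-fold higher in the PBS library (203 CPM, against 8.82 CPM). Herc6, the mouse ligase for Isg15, was 4.84-fold and 6.60-fold higher, and Parp14, an ADP-ribosyl transferase, 4.49-fold and 8.36-fold.

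The list of PYHIN genes, a cluster of DNA-binding proteins on chromosome 1, also held PHF11 and Schlafen genes. In it 12 of 19 detected genes were measured in the Igfbpl1 library and 11 of 18 in the PBS library. Those measured were past 2-fold, against 2.71% and 4.84% of all measured genes. Low genes pass the filter only through the class where they are high, so this count is no support. The median log2 ratio over all detected genes was 1.92 and 2.33. Ifi211, a PYHIN gene, stood at 151 CPM, against 15.1 CPM (9.99-fold, 6.78 to 14.8), in the Igfbpl1 library and at 188 CPM, against 4.41 CPM (42.6-fold, 20.6 to 93.0), in the PBS library. Ifi206 was 7.28-fold and 18.04-fold higher, Ifi209 5.94-fold and 9.13-fold, and Ifi204 4.04-fold and 8.80-fold. These genes are close relatives in sequence, so reads may be split between them. Slfn5, a Schlafen gene that restricts growth and viruses, was 6.11-fold and 8.29-fold higher. Among the guanylate-binding and immunity-related GTPases, which attack the vacuoles of pathogens, only 2 genes were measured in each library. Iigp1, named after its values were seen, had 22 UMIs in the Igfbpl1 cells, against 20 in other microglia (9.52-fold), and 13 UMIs in the PBS cells, against 0 in 739 other microglia (at least 88.6-fold, on a floor of 3 UMIs over the class).

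Cytokine genes were uneven between cells. Cxcl10, which draws T cells through CXCR3, stood at 1089 CPM, against 164 CPM in other microglia of the Igfbpl1 library (6.65-fold, 5.86 to 7.55), and at 2540 CPM, against 133 CPM, in the PBS library (19.1-fold, 16.4 to 22.2). It was found in 42 of 121 and in 10 of 30 cells. Of its 434 UMIs in the Igfbpl1 cells 210 came from 7 of the 11 cells with 16 or more UMIs of the rule, and of its 338 UMIs in the PBS cells 315 came from 7 of 9 such cells. In those strongest cells it stood at 7623 and 8632 CPM, and in the cells with 4 to 15 UMIs at 604 and 238 CPM. Ccl12, a monocyte-attracting chemokine, was broader, found in 113 of 121 and in 27 of 30 cells, at 6266 CPM, against 2941 CPM, in the Igfbpl1 library and at 4418 CPM, against 1008 CPM, in the PBS library. Ccl5, named after its values were seen, was 2.14-fold higher in the Igfbpl1 library (1069 CPM, against 501 CPM) and 17.3-fold higher in the PBS library (1998.8 CPM, against 116 CPM, in 10 of 30 cells). Cells outside the gate held 90.3% of the Ccl5 UMIs of the Igfbpl1 library and 46.7% of those of the PBS library, and the part of free RNA in its values was not tested.

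Genes of antigen presentation were less uniform. In the class I pathway 8 of 17 measured genes were at least 1.5-fold higher in the Igfbpl1 library, against 5.95% of all measured genes, and 13 of 16 in the PBS library, against 14.1%. The peptide transporter Tap1 was 2.49-fold and 4.43-fold higher. The class I chains were nearly level in the Igfbpl1 library but not in the PBS library, H2-K1 with ratios of 1.07 (0.975 to 1.18) and 2.56 (2.23 to 2.94), H2-D1 with 0.966 and 1.61, and B2m with 1.13 and 1.70. Class II genes, which present antigen to helper T cells, came to 4685 CPM, against 1705 CPM, in the Igfbpl1 library and to 1240 CPM, against 600 CPM, in the PBS library. In the Igfbpl1 library their level was lower in the strongest responders. Cells with 16 or more UMIs stood at 907 CPM there, and those with 4 to 15 UMIs at 4966 CPM. The PBS levels were 411 and 1553 CPM, but 75.3% of the UMIs behind the 1553 CPM came from 1 cell. That cell is also among the 30 behind the 1240 CPM, so the PBS excess over other microglia rests largely on it. H2-Ab1 was found in 42 of 121 and in 7 of 30 cells, against 353 of 1449 other microglia of the Igfbpl1 library. Any class II UMI was found in 77.3% of the Igfbpl1 cells with 4 to 15 UMIs and in 79.8% of its other microglia. Of the 1842 class II UMIs in those cells with 4 to 15 UMIs, 1 cell held 327. Thinned to equal depth, Cd74 was found in 23.1% of the Igfbpl1 cells, against 21.7% of its other microglia, and H2-Ab1 in 20.7%, against 12.3%. In the Igfbpl1 library the monocyte markers stood at 363 CPM in the strongest cells (10 UMIs, 174 to 668 CPM) and at 690 CPM in those with 4 to 15 UMIs. A single cell held 80 of the 256 UMIs behind the 690 CPM. By share of cells the order was the reverse, with a monocyte marker UMI in 4 of 11 and in 24 of 110 cells (36.4% and 21.8%). The part of monocyte markers in the class II levels was not tested.

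**Figure D4:**
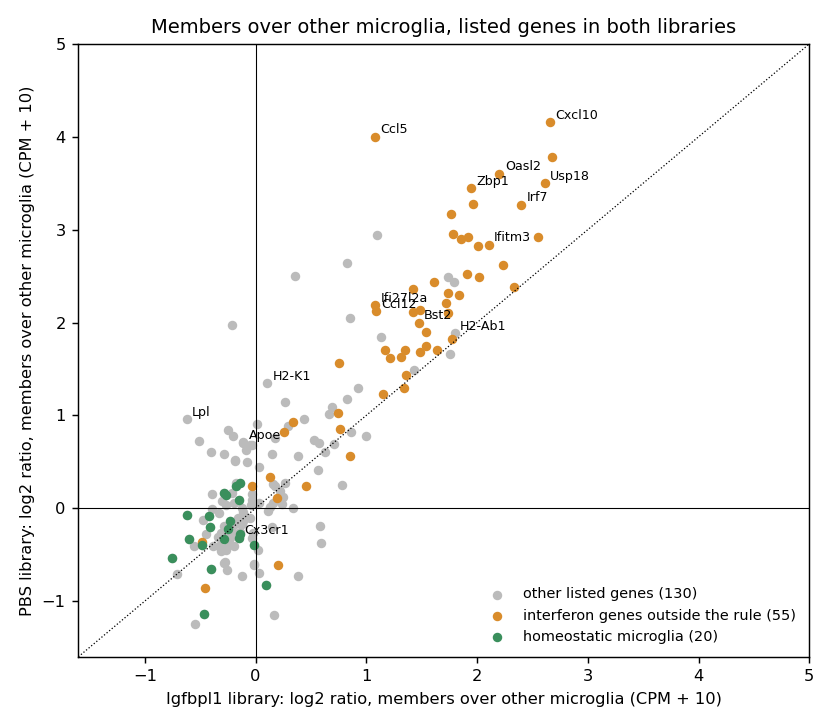
Log2 ratio of interferon-responsive cells over other microglia in the Igfbpl1 library (horizontal) and in the PBS library (vertical), with 10 CPM added, for listed genes measured in both, where each point is a gene and the dotted line marks equal ratios. Of 55 interferon genes outside the rule (orange) 45 were at least 1.5-fold higher in both libraries. Of 20 homeostatic genes (green) 0 reached 1.5-fold higher in either. Over all measured genes 5.95% and 14.1% were higher in the Igfbpl1 and PBS libraries. Low genes pass the filter only through the class where they are high, so the count of 45 describes the genes shown only. Of the 55, 49 had the larger ratio in the PBS library, where the list stood lower in other microglia (5937 CPM, against 10136 CPM).

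Of 20 homeostatic genes, those of resting microglia, 0 were at least 1.5-fold higher in either library, against 5.95% of all measured genes in the Igfbpl1 library and 14.1% in the PBS library. In each library 3 were lower, against 2.71% and 9.76% of all measured genes, a PBS count near the share of all genes. The median log2 ratios were -0.27 and -0.25. Cx3cr1 stood at 1995 CPM, against 2211 CPM, in the Igfbpl1 library and at 2495 CPM, against 3115 CPM, in the PBS library. Csf1r, the receptor that microglia need to survive, had ratios of 0.821 and 0.791, and Trem2 of 0.716 and 0.759. The 6 gate genes, as a description, came to 3671 CPM, against 4653 CPM, in the Igfbpl1 library and to 4757 CPM, against 6261 CPM, in the PBS library. P2ry12, the purinergic receptor of resting microglia, stood at 637 CPM, against 776 CPM, and at 1007 CPM, against 1505 CPM.

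Counts at 1.5-fold for the following lists are to be read against 5.95% higher and 2.71% lower over all measured genes of the Igfbpl1 library, and 14.1% and 9.76% of the PBS library. Apoe, a lipid carrier of injury-associated microglia, stood at 8565 CPM, against 9250 CPM (0.926-fold), in the Igfbpl1 library and at 8318 CPM, against 5080 CPM (1.64-fold), in the PBS library, where 1 cell held 365 of its 1107 UMIs. In the strongest responders it was lower, at 1198 and 1809 CPM, and 63 of the 66 UMIs behind that PBS value came from 1 cell. The list of disease-associated microglia had 4 of 15 measured genes at least 1.5-fold higher and 1 lower in the Igfbpl1 library, and 7 of 14 higher and 0 lower in the PBS library. The receptor gene Axl, named after its values were seen, was 1.89-fold higher in the Igfbpl1 library (181 CPM, against 95.6 CPM) and 4.75-fold higher in the PBS library (248 CPM, against 52.2 CPM). Inflammatory cytokines and NF-kB targets had 2 of 16 higher in the Igfbpl1 library and 7 of 15 in the PBS library, and 0 lower in either. Ccl2, a monocyte chemokine gene, was 1.55-fold and 1.53-fold higher. Tnf was 1.51-fold and 1.66-fold higher, Il1b had ratios of 0.919 and 0.999, both with 1 in their intervals, and Hmox1, a haem-degrading enzyme gene of oxidative stress, of 0.883 and 1.21. Heat shock genes, which cell isolation can induce, had 0 of 14 higher and 0 lower in the Igfbpl1 library, and 3 higher and 2 lower in the PBS library, counts near the shares of all genes. Immediate early genes had 1 of 19 higher and 0 lower in the Igfbpl1 library, and 0 higher and 6 lower in the PBS library.

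**Figure D5:**
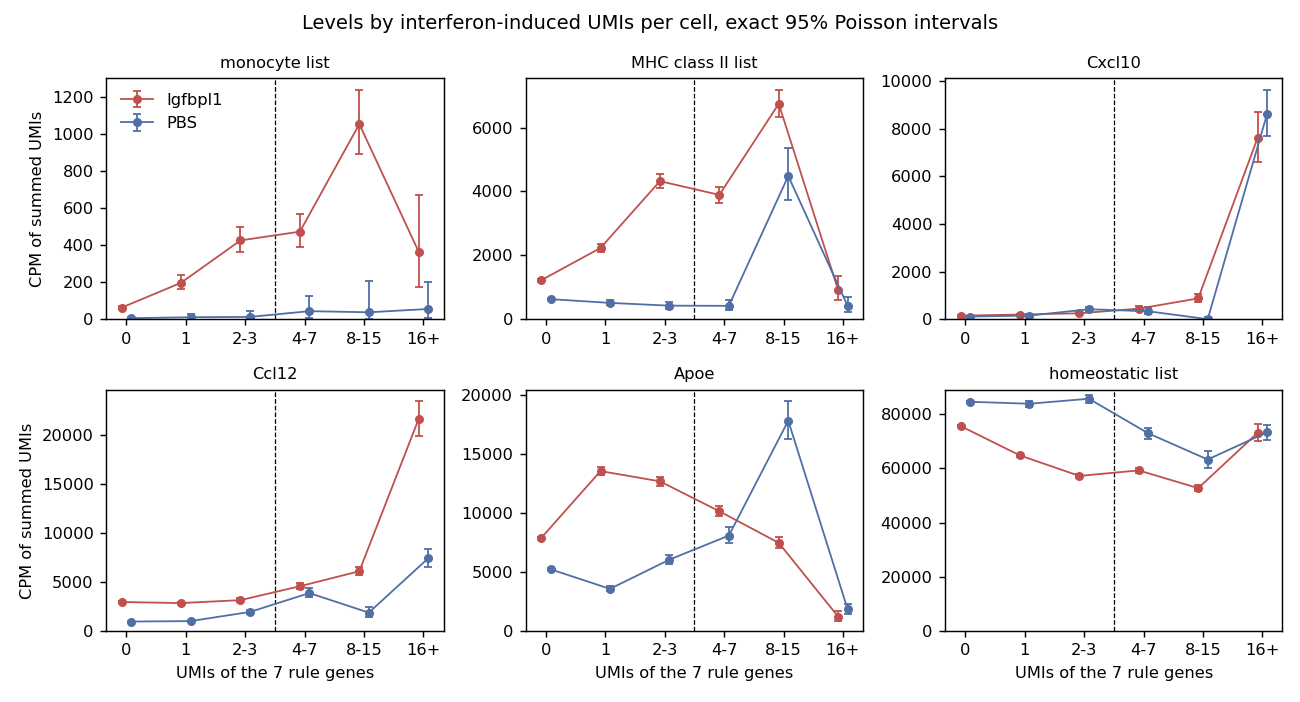
Summed level (CPM) of the monocyte markers, the class II genes, Cxcl10, Ccl12, Apoe and the homeostatic genes in microglia by UMIs of the 7 rule genes, in the Igfbpl1 library (red) and the PBS library (blue), with exact 95% Poisson intervals and the limit at the dashed line. Cxcl10 reaches 7623 and 8632 CPM in the cells with 16 or more UMIs, where Apoe stands at 1198 and 1809 CPM and the class II genes at 907 and 411 CPM.

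Over all genes 88 of 3242 measured ones (2.71%) were at least 2-fold higher in the interferon-responsive cells of the Igfbpl1 library and 5 (0.154%) lower. The PBS counts were 171 of 3535 (4.84%) higher and 75 (2.12%) lower. Among 2994 genes measured in both libraries 62 were higher in both and 0 lower in both. Clone-named, mitochondrial and ribosomal protein genes were left out of the 62 and the 0, but not of the other counts. The overlap of the higher genes is thus at least 70.5% of the Igfbpl1 calls and at least 36.3% of the PBS calls. The lists of interferon genes held 42 of these 62. Among the other 20 were Ms4a4c, a membrane protein gene of myeloid cells (5.47-fold and 12.4-fold), the class II genes H2-Aa, H2-Ab1, H2-Eb1 and Cd74, and the monocyte chemokine gene Ccl7. The summed class II level of the PBS cells rests largely on a single cell, as given above. Samd9l, Epsti1, Sp110 and Znfx1, named after their values were seen, are known as interferon-induced genes that the lists had left out. The mean of 30 PBS cells rests on 133077 UMIs and that of 121 Igfbpl1 cells on 398483 UMIs, so single genes are less certain in the PBS library.

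The interferon-responsive cells of the Igfbpl1 library were last set against those of the PBS library. Of 3415 measured genes 136 (3.98%) were at least 2-fold higher and 174 (5.10%) lower. The median log2 ratio of all measured genes was -0.14, and with that shift removed 181 were higher and 113 lower. In the list of interferon genes 9 of 72 measured ones were at least 1.5-fold higher, against 10.7% of all measured genes, and 12 lower, against 20.1%. Immediate early genes had 11 of 19 higher and heat shock genes 7 of 13, with 0 lower in either list, and homeostatic genes had 0 of 20 higher and 8 lower. The other microglia differed between the libraries in the same directions. Their immediate early genes had 5 of 19 higher and heat shock genes 11 of 14, against 3.87% of all measured genes. Homeostatic genes had 4 of 20 lower there, against 5.34%. These differences were thus also found outside the interferon-responsive cells. In the interferon-responsive cells Ifitm3 was 1.63-fold higher (1.36 to 1.96), Ifi27l2a 1.89-fold (1.58 to 2.27) and Ccl12 1.42-fold (1.30 to 1.55). Cxcl10 had a ratio of 0.429 (0.371 to 0.496) and Irf7 of 1.07 (0.725 to 1.61). The Cxcl10 ratio rests on the strongest cells, those with 16 or more UMIs of the rule. They were 9 of 30 PBS cells, with 315 of 338 Cxcl10 UMIs, and 11 of 121 Igfbpl1 cells, with 210 of 434. In the weaker chosen cells the Igfbpl1 level of Cxcl10 was the higher, as given above.

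The 10 named genes furthest above PBS included several that monocytes are known to express. S100a6, S100a11 and S100a4, calcium-binding protein genes, had 57, 53 and 52 UMIs in the Igfbpl1 cells, against 0 in the PBS cells, at least 6.35-fold, 5.90-fold and 5.79-fold on a floor of 3 UMIs over the class. Cxcl2, a neutrophil chemokine gene, had 59 UMIs in 7 cells, against 0 (at least 6.57-fold). Crip1 stood at 376 CPM, against 22.5 CPM on 3 UMIs, Wfdc17 at 432 CPM, against 22.5 CPM on 3 UMIs, and Plac8, a monocyte marker of the list, at 346 CPM, against 37.6 CPM on 5 UMIs. Vim, an intermediate filament gene, had 58 UMIs, against 2. H2-Aa stood at 748 CPM in 23 cells, against 105 CPM in 1 cell, and Hspb1, a small heat shock protein gene, at 607 CPM, against 97.7 CPM (6.22-fold, 3.57 to 11.8). Plac8 and S100a4 belong to the monocyte markers, which moved with this comparison at 668 CPM, against 45.1 CPM. In the other microglia these markers stood at 122 CPM in the Igfbpl1 library, against 6.25 CPM in the PBS library. Their difference was thus also found outside the interferon-responsive cells. Between interferon-responsive cells without any monocyte marker UMI, 131 genes were at least 2-fold higher and 153 lower.

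On the lower side the named genes rested on few UMIs. Lpl, lipoprotein lipase, had 16 UMIs in 13 cells of the Igfbpl1 library, against 25 UMIs in 10 cells of the PBS library (40.2 CPM, against 188 CPM, ratio 0.214, 0.107 to 0.416). Lag3 and Pdcd1, inhibitory receptor genes, stood at 57.7 CPM, against 218 CPM, and at 20.1 CPM, against 97.7 CPM. Hells, Abraxas2, Ppcdc, Ubxn7, Ppm1l and Lars2 had ratios of 0.180 to 0.267. The same contrast in the other microglia gave 43 of 3334 genes (1.29%) at least 2-fold higher and 9 (0.270%) lower, and at 1.5-fold 129 (3.87%) higher and 178 (5.34%) lower.

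Within the Igfbpl1 library the Xist-only and Y-only cells had like levels of the interferon list and unlike levels of Apoe. The list of 108 came to 25903 CPM over 77 Xist-only cells and to 26606 CPM over 19 Y-only cells. Cells with 16 or more UMIs of the rule were 2 of 77 and 5 of 19, and Cxcl10 stood at 923 and 2197 CPM. Apoe was at 11927 and 1393 CPM, and Ifitm3 at 1898 and 1443 CPM. Among the other microglia of that library Apoe reached 15861 CPM in the Xist-only set and 5419 CPM in the Y-only set. The 4 Xist-only cells of the PBS library had a list level of 14532 CPM and the 15 Y-only cells 29932 CPM, with 0 and 6 cells at 16 or more UMIs. Of the interferon-responsive cells 63.6% were Xist-only in the Igfbpl1 library and 13.3% in the PBS library, against 32.6% and 24.9% of the other microglia.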

How the data were processed

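Counts of UMIs per gene and cell barcode were used as deposited by the authors. Cell Ranger 3.1 and the mouse build mm10 are named in the submitters' processing notes, while the filtering of barcodes was not given in the sources used here. Depth is given in the report, and 1 library per group left no replicate. Cells were gated, summed by class and scaled to CPM with Python 3.11.15, numpy 2.4.6, pandas 2.3.3 and scipy 1.17.1. Ratios of classes carry exact conditional binomial intervals, shares Clopper-Pearson ones, levels Poisson ones and differences of shares Newcombe ones, all at 95%. They treat UMIs or cells as independent and cover counting error only. Genes were called by a fold on log2(CPM + 10) with no p-value, and a gene listed in only 1 library was left out of ratios between libraries. Doublets were marked with Scrublet in scanpy 1.11.5 and kept in. The scripts were tested on simulated data. Promoter windows are 250 bases from RefSeq for GRCm38.p6, figures were drawn with matplotlib 3.10.9, and chromosome 18 was left out of the sequences.

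The members and lists were chosen with earlier results of these data known. Genes named are the 12 with the largest smaller ratio among those at least 2-fold higher in both libraries (0 were lower in both), the 10 furthest apart in each direction between the libraries, and a fixed set of rule, gate, signalling, effector, antigen presentation and microglial genes, of which Mx1 and most ligand genes are not analysed here. Clone-named, mitochondrial and ribosomal protein genes were left out of the first 2 choices. Irf5, Irf8, Ifih1, Ddx58, Tlr3, Tlr7, Tmem173, Aim2, Tap1, Ccl5, Ccl7, H2-Eb1, Iigp1, Axl, Samd9l, Epsti1, Sp110 and Znfx1 were named after their values were seen. Some genes that the rule names are not reported here. Alternatives covered the limit, the gate, depth, sex-linked sets, doublets, other cell types, the filter, the CPM added and the scaling.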

Additional observations from a re-analysis of the deposited data

Results flagged for a closer look

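Lag3, an inhibitory receptor gene found in microglia, and Lpl, lipoprotein lipase, lay on opposite sides of the other microglia in the libraries. Lag3 stood at 57.7 CPM in the interferon-responsive cells, against 91.9 CPM in other microglia of the Igfbpl1 library (ratio 0.628, 0.393 to 0.960). In the PBS library it stood at 218 CPM, against 126 CPM (ratio 1.73, 1.14 to 2.54). Lpl stood at 40.2 CPM, against 67.2 CPM, in the Igfbpl1 library (ratio 0.597, 0.336 to 0.991) and at 188 CPM, against 91.9 CPM, in the PBS library (ratio 2.04, 1.30 to 3.09). These levels rest on 23 and 29 UMIs of Lag3 and on 16 and 25 UMIs of Lpl in the interferon-responsive cells. The difference between the libraries was not tested, since each is 1 library.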

How the results depend on the processing

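No paired analysis was possible because each group is 1 library, and for the same reason no library could be left out. The share difference was positive under the 13 alternatives to the limit, gate, depth and cells (0.297 to 11.9 points), but not at every limit or in every subset: it was -0.47 points at 16 or more UMIs, -0.862 among cells with neither kind of sex-linked transcript and -2.35 among the few with both. It came to 0.297 points for Y-only cells, 11.9 for Xist-only cells and 6.93 with a limit of 10 per 10000 UMIs and 2 UMIs. The median log2 ratio of the interferon genes outside the rule was positive under all 19 alternatives in each library (1.13 to 1.77 and 1.33 to 2.19). In the Igfbpl1 library it was 1.13 among Xist-only cells and 1.15 with 50 CPM added. The PBS median was 1.33 among Xist-only cells, 1.36 with 50 CPM added, and 1.70 with a mean of 10 CPM, with no filter, and with 20 CPM over all microglia, the last chosen after seeing the data. Counts of genes past 2-fold moved with the filter and the CPM added. Between interferon-responsive cells and other microglia of the Igfbpl1 library, 57 were higher and 0 lower with 50 CPM added, 178 and 66 with a mean of 10 CPM, and 204 and 100 with no filter; the lower ones numbered 16 with 1 CPM added and 12 with cells weighted equally. The same contrast in the PBS library gave 90 higher and 13 lower with 50 CPM added, 350 and 458 with a mean of 10 CPM, and 481 and 846 with no filter. Between Igfbpl1 and PBS interferon-responsive cells, 398 were higher and 346 lower in the Xist-only set, 68 and 81 in the Y-only set, 54 and 30 with 50 CPM added, and 1049 and 888 with no filter; 245 were higher with a mean of 10 CPM and 113 lower after scaling by the median ratio. The sex-linked sets hold fewer cells, and the filters change which genes are tested; other causes were not tested. With 30 PBS cells, 4 of them Xist-only, single genes and subsets there rest on few UMIs.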
